A study of Homo sapiens with 12 samples.

Results

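Fibronectin is a secreted matrix protein, and the integrins that bind it are pairs of 1 α and 1 β subunit in the cell membrane. The genes described here are FN1, which encodes fibronectin, the α subunit genes ITGA4, ITGA5 and ITGAV, and the β subunit genes ITGB1, ITGB3, ITGB5, ITGB6 and ITGB8. They were chosen by name from textbook knowledge of which integrins bind fibronectin, and these 9 genes were each found once among the 23368 gene symbols of the deposited count table. The study placed MDA-MB-231 cells (breast adenocarcinoma, ER-) or T47D cells (breast cancer, ER+) as single cells in hydrogels of poly(ethylene glycol) joined by a crosslinker that cells can degrade. Each hydrogel carried either the peptide GFOGER, a collagen mimic, or the peptide IKVAV, a laminin mimic, and a fibronectin mimic was not part of the sequenced samples. RNA was taken on day 3 after the hydrogels had been dissolved with collagenase, 3 hydrogels were pooled for each replicate, and all cells grew in medium with 10% serum. The libraries analysed were 3 of MDA-MB-231 cells in GFOGER, 2 of MDA-MB-231 cells in IKVAV, 3 of T47D cells in GFOGER and 3 of T47D cells in IKVAV. A further labelled replicate of MDA-MB-231 in IKVAV was not analysed here.

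The best studied fibronectin receptor, α5β1, joins the products of ITGA5 and ITGB1 and assembles soluble fibronectin into fibrils. The αV subunit from ITGAV pairs with β1, β3, β5, β6 or β8, and these receptors also bind vitronectin, other matrix proteins or the latent form of TGF-β. The α4 subunit from ITGA4 pairs with β1 and is best known from leukocytes. Fibronectin synthesis is high in fibroblasts and in mesenchymal cancer cells and low in most epithelial cells. Each cell line here is a single established line, so differences between the lines cannot be told apart from differences between breast cancer subtypes.

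The stretches of FN1 that encode its integrin binding sites are shown because they tie the ligand to the receptors measured in the same libraries. They lie on the minus strand of chromosome 2 and were read from the hg19 (GRCh37) genome along the FN1 transcript with the longest coding sequence in the GENCODE annotation, which has 46 exons and 2477 codons. Capitals mark the codons of the binding motif, and each line runs 5′ to 3′ along the coding strand.
Cell attachment motif RGD, bound by α5β1 and αV integrins, exon 30, chr2:216248762-216248818: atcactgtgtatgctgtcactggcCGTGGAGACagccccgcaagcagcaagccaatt
Synergy motif PHSRN, which adds to binding by α5β1, exon 28, chr2:216251494-216251556: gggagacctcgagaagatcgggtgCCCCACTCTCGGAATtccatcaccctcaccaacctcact
Connecting segment motif LDV, bound by α4β1, exon 40, chr2:216237010-216237066: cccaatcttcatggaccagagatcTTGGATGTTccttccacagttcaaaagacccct
The RGD codons were present in 10 of the 11 annotated open reading frames of FN1, and the LDV codons of exon 40 in 6 of the 11. That exon is known to be spliced in different ways, but the reason each frame lacks the codons was not examined. A further LDV, in exon 46, is not shown. The deposited values are 1 count per gene and do not separate these transcripts.

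FN1 and ITGB8 are the members called more than 2-fold lower with GFOGER in MDA-MB-231 cells, and the 250 bases before their annotated starts are shown for that reason. They are the RefSeq promoter sequences of build GRCh38.p14, 5′ to 3′ on each gene's own strand, with motif matches in capitals.
FN1 promoter, chr2:215436069-215436318, minus strand: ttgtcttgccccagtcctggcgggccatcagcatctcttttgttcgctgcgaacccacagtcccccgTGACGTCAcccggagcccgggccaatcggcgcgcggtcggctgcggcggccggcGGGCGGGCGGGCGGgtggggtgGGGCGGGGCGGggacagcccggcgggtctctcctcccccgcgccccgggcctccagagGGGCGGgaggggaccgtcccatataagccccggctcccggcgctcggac
ITGB8 promoter, chr7:20330650-20330899, plus strand: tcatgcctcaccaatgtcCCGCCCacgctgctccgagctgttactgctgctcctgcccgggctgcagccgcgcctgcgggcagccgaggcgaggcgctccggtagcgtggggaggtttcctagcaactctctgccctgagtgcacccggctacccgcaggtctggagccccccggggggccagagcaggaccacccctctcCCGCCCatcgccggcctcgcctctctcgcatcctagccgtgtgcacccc
The letters searched on both strands, in windows that reached 50 bases past the start, were the cAMP response element TGACGTCA, the AP-1 motif TGANTCA and the Sp1 motif GGGCGG, with overlapping matches counted separately. The cAMP response element was found in 1.84% of 34796 promoters of the same length, the AP-1 motif in 7.73% and the Sp1 motif in 44.9%. The FN1 window held 1 cAMP response element, 183 bases before the start, and 6 Sp1 matches. The ITGB8 window held 2 Sp1 matches, both on the opposite strand, and neither of the other 2 motifs. Promoters were listed for 8 of the 9 members, and the cAMP response element was present in the FN1 window alone among them. The ITGA5 window had the one AP-1 match among these members, 6 bases before the start. A match describes these letters and is not evidence of a bound factor.

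The 11 libraries held 14337035 to 18449108 reads on genes, and the values below are cpm (counts per 1000000 reads) after normalization by TMM, which corrected the library totals by factors of 0.952 to 1.03. A count of 3, used as the floor of detection, corresponded to 0.171 to 0.203 cpm, and such limits cover counting error only. VIM and CD44, markers of mesenchymal and basal cells, summed to between 3136 and 4402 cpm in the MDA-MB-231 libraries and between 112 and 127 cpm in the T47D libraries, while the 6 epithelial and luminal markers (CDH1, EPCAM, ESR1, GATA3, KRT8, KRT18) summed to 356 to 436 and to 3706 to 4237 cpm. GFOGER replicate 3 of MDA-MB-231 cells and IKVAV replicate 3 of T47D cells stood apart from the other replicates of their groups. Their squared differences from those replicates, averaged over genes, were 16.4 to 18.6 times what sampling noise of the counts gives. Other pairs of replicates had 2.51 to 9.92 times on this squared scale. The labels number the replicates but do not name separate passages or cultures, so the p-values measure the spread between these libraries, which may be technical.

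The first question was how the expression of fibronectin and its receptors differed between the collagen mimic and the laminin mimic in MDA-MB-231 cells. FN1 was 8.22-fold lower with GFOGER than with IKVAV and ITGB8 3.28-fold lower, while the common receptor subunit genes ITGB1, ITGAV and ITGB5 differed by 1.13-fold or less. Of the 9 members, 8 passed the filter on low counts and 2 were called, meaning that the adjusted p was below 0.05 and the change exceeded 2-fold, both lower with GFOGER. Over all 14090 genes tested, 9.57% were called by this rule. At any fold, 4 of the 8 had an adjusted p below 0.05, namely FN1, ITGB3 and ITGB8 lower and ITGA5 higher, beside 42.7% of all genes tested. Without GFOGER replicate 3, 6 of the 8 passed at any fold, ITGB1 and ITGB5 in addition. The same 6 passed with the replicate number as a block. No IKVAV library analysed had the number 3, so the block also set GFOGER replicate 3 aside and was not a separate check. Without IKVAV replicate 2, which left a single IKVAV library, the log2 fold change of ITGA5 was 0.36. The median log2 fold change of the 8 members was -0.51, and that of all genes was 0. A positive fold change between the peptides means higher with GFOGER, and all adjusted p-values come from the quasi-likelihood test of edgeR, adjusted by Benjamini-Hochberg over all genes tested. In bulk RNA, fewer cells that express a gene and less RNA per cell cannot be told apart.

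FN1 (chr2:216225179-216300791, minus strand) had 772, 758 and 757 cpm in the 3 GFOGER libraries of MDA-MB-231 cells and 6305 and 6153 cpm in the 2 IKVAV libraries. The groups were far apart, and the replicates of each lay within a few percent of each other. The log2 fold change was -3.04 (SE 0.0794, edgeR quasi-likelihood test, Benjamini-Hochberg adjusted p = 1.28e-13). With IKVAV, FN1 had the highest mean cpm of all genes in the table and took 0.604% and 0.619% of all counts. With GFOGER its mean ranked 119 among all genes and it took 0.072% to 0.0745% of the counts. Among the 909 genes called lower with GFOGER, 43 had a larger fold change than FN1. The plot of cpm by library shows this gap beside the smaller differences of the receptor genes.

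**Figure D1:**
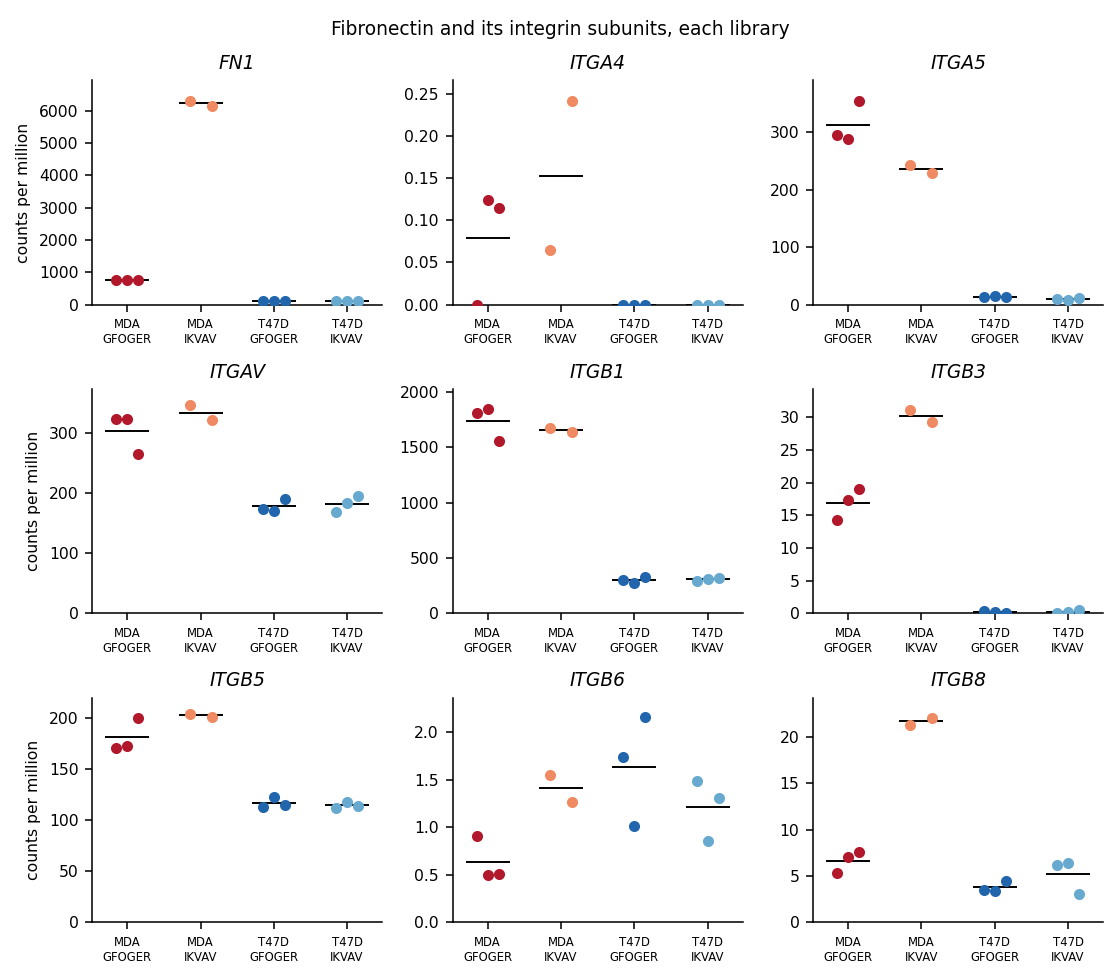
The cpm values (linear axes from 0, TMM-normalized) of the 9 genes in each of the 11 libraries, with 1 point per library and a black line at the mean of each group, MDA standing for MDA-MB-231. FN1 sits at 6153 and 6305 cpm in MDA-MB-231 cells with IKVAV and at 757 to 772 cpm with GFOGER, ITGB8 shows the same order at 21.3 to 22.1 and 5.32 to 7.58 cpm, and ITGA4 has at most 4 reads in any library.

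Among the α subunits, ITGA5 (chr12:54789045-54813050), the partner of β1 in the α5β1 receptor, had 295, 288 and 354 cpm with GFOGER and 242 and 229 cpm with IKVAV in MDA-MB-231 cells. Every GFOGER library lay above both IKVAV libraries, with replicate 3 the highest. The difference was 1.32-fold (log2 0.40, SE 0.0994, edgeR adjusted p = 0.00412), and without IKVAV replicate 2 it was 0.36 with an adjusted p of 0.092. ITGAV (chr2:187454790-187545628), the shared partner of all 5 β subunits, had 322, 323 and 264 cpm with GFOGER and 346 and 320.4 cpm with IKVAV, and the groups overlapped (log2 fold change -0.14, SE 0.102, edgeR adjusted p = 0.273). ITGA4 (chr2:182321619-182402468) had counts of 0, 2 and 2 with GFOGER and 1 and 4 with IKVAV. These are at or close to the floor of 3 counts, the gene did not pass the filter on low counts, and no fold change is given. The gene CERKL overlaps ITGA4 by 1068 bases and had at most 26 reads in a library.

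Of the β subunits, ITGB1 (chr10:33189246-33247293), the partner of α4, α5 and αV and of most collagen and laminin binding integrins, ranked 27 with GFOGER and 28 with IKVAV by mean cpm among all genes. It had 1809, 1850.3 and 1558 cpm with GFOGER and 1679.7 and 1640.1 cpm with IKVAV, so that the IKVAV libraries lay inside the range of the GFOGER libraries (log2 fold change 0.06, SE 0.0918, edgeR adjusted p = 0.629). Without GFOGER replicate 3, which stood apart from its group, the log2 fold change of ITGB1 was 0.14 with an edgeR adjusted p of 0.00055. ITGB5 (chr3:124481795-124606144), whose product binds vitronectin as αVβ5, had 171, 172 and 200.2 cpm with GFOGER and 204 and 201 cpm with IKVAV. The log2 fold change was -0.17 (SE 0.0945, edgeR adjusted p = 0.154), although no library of one group reached into the other, and without GFOGER replicate 3 it was -0.24 with an adjusted p of 2.65e-05. ITGB3 (chr17:45331208-45390077), the partner of αV in the vitronectin and fibronectin receptor αVβ3, had 14.3, 17.3 and 19.0 cpm with GFOGER and 31.1 and 29.3 cpm with IKVAV. The groups did not overlap, and the log2 fold change of -0.85 (SE 0.14, edgeR adjusted p = 0.000153) passed the adjusted p but not the limit of 2-fold.

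ITGB8 (chr7:20370725-20455382) and ITGB6 (chr2:160958233-161056590) encode the β subunits of αVβ8 and αVβ6, receptors best known for activating latent TGF-β. ITGB8 had 5.32, 7.05 and 7.58 cpm with GFOGER and 21.3 and 22.1 cpm with IKVAV. All GFOGER libraries lay far below both IKVAV libraries, and the log2 fold change was -1.72 (SE 0.167, edgeR adjusted p = 6.28e-07). ITGB6 was near the lower limit of what these libraries measure, with counts of 16, 8 and 9 with GFOGER and 24 and 21 with IKVAV. Its groups did not overlap, and the log2 fold change of -1.13 (SE 0.448, edgeR adjusted p = 0.0515) did not pass the threshold, but it did without GFOGER replicate 1 (-1.48, adjusted p = 0.0276).

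The same question was asked in T47D cells, where 0 of the 7 members tested were called by edgeR's quasi-likelihood test, and also 0 at any fold. Past both limits the count was 0 with DESeq2 and with limma's voom, and at any fold 0 with DESeq2 and 2 with voom. By the first rule 0.0293% of 13639 genes tested were called, and at any fold 0.110%. One member, ITGA5, had an unadjusted p below 0.05. ITGA4 and ITGB3 did not pass the filter on low counts. The median log2 fold change of the 7 members was -0.04 and that of all genes was 0.

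FN1 had 108, 121 and 112 cpm in the T47D libraries with GFOGER and 122, 105 and 123 cpm with IKVAV, and the groups overlapped (log2 fold change -0.04, edgeR adjusted p = 0.921). ITGA5 had 13.1, 14.6 and 13.2 cpm with GFOGER and 9.83, 8.24 and 11.6 cpm with IKVAV. Every GFOGER library was above every IKVAV library, in the same order as in MDA-MB-231 cells, but the log2 fold change of 0.47 (SE 0.15) had an adjusted p of 0.281 over all genes tested with edgeR. ITGB8 had 3.47, 3.39 and 4.50 cpm with GFOGER and 6.17, 6.41 and 3.09 cpm with IKVAV, where replicate 3 with IKVAV lay below the GFOGER libraries (log2 fold change -0.46, SE 0.257, edgeR adjusted p = 0.531). That library is one of those that stood apart from their group. Without it, ITGB8 had a log2 fold change of -0.73 (edgeR adjusted p = 0.0193) and ITGA5 one of 0.60 (edgeR adjusted p = 0.0109). With all 6 libraries, limma's voom with sample quality weights also gave both an adjusted p under 0.05 (0.0252 for ITGB8 and 0.0109 for ITGA5). The library totals implied by the deposited RPKM values put it with the 3 GFOGER libraries of T47D cells, at 5291494 to 5774966, and apart from the other 2 IKVAV libraries, at 19898878 and 21774757. With these 2 sets as a term in the fit, IKVAV replicate 3 is the only IKVAV library compared with the GFOGER libraries. The log2 fold change of ITGB8 was then 0.30, the opposite direction, and it rests on that library.

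The other T47D members were close between the peptides. ITGAV ranged from 169 to 189.6 cpm with GFOGER and from 168 to 194 cpm with IKVAV, ITGB1 from 271 to 333 and from 294 to 320.2 cpm, and ITGB5 from 113 to 123 and from 112 to 117 cpm. Their log2 fold changes were -0.04, -0.04 and 0.03. ITGB6 had counts of 29, 17 and 38 with GFOGER and 22, 14 and 22 with IKVAV, with overlapping groups. ITGB3 had 6, 3 and 2 reads with GFOGER and 0, 4 and 8 with IKVAV, near the floor of 3 counts. ITGA4 had 0 reads in all 6 T47D libraries, which allows up to 0.171 to 0.203 cpm per library.

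Whether the peptide difference itself differed between the cell lines was tested as an interaction in a fit of all 4 groups. Of the 8 members tested, 2 were called, FN1 and ITGB8, beside 6.39% of the 15310 genes tested, and at any fold the count was also 2, beside 21.0%. The GFOGER against IKVAV difference of FN1 in MDA-MB-231 cells lay below that in T47D cells by a log2 value of -2.99 (SE 0.115, edgeR adjusted p = 8.63e-13), and that of ITGB8 by -1.25 (SE 0.326, edgeR adjusted p = 0.00975). The call for ITGB8 was lost without IKVAV replicate 3 of T47D cells, where the value was -0.98, just under the limit of 2-fold (adjusted p = 0.0102). For ITGA5, which was higher with GFOGER in both lines, the interaction was -0.06 (SE 0.167, edgeR adjusted p = 0.85). For ITGB3 it was -0.63 with a wide error (SE 0.755, edgeR adjusted p = 0.595), since its T47D counts were so low.

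**Figure D2:**
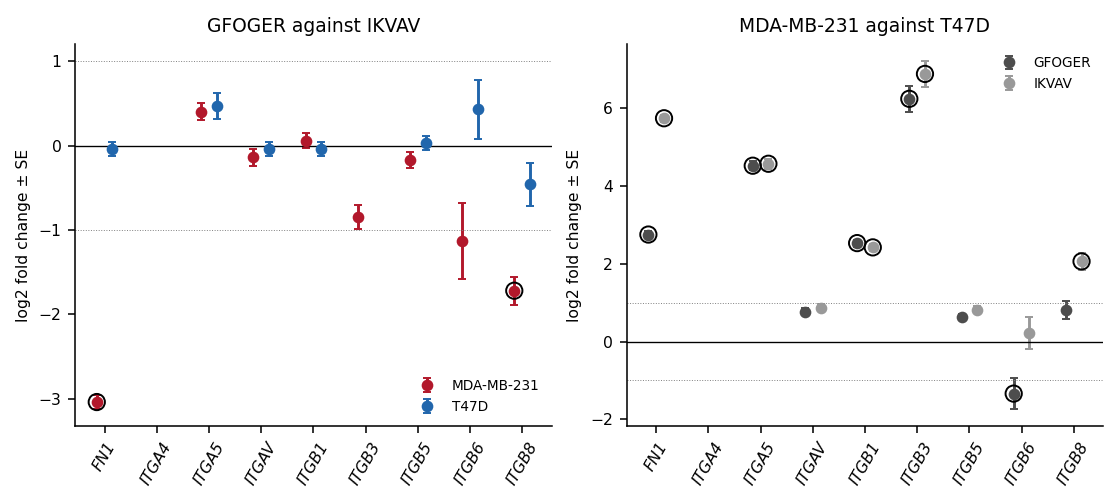
Log2 fold changes (points) with their standard errors (bars) from edgeR's quasi-likelihood fits, on the left for GFOGER against IKVAV in each cell line and on the right for MDA-MB-231 against T47D in each peptide, with dotted lines at 2-fold and circles around called genes. FN1 at -3.04 and ITGB8 at -1.72 are the circled points on the left, and members with no point did not pass the filter on low counts.

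The 2 cell lines were then compared within each peptide. In GFOGER, 5 of the 8 members tested were called (FN1, ITGA5, ITGB1 and ITGB3 higher and ITGB6 lower in MDA-MB-231 cells), where 46.9% of the 15310 genes tested were called, and all 8 passed at any fold, beside 79.6% of all genes. In IKVAV, 5 of 8 were called, all higher in MDA-MB-231 cells (FN1, ITGA5, ITGB1, ITGB3 and ITGB8), beside 45.9% of all genes, and 7 passed at any fold, beside 77.3%. With so few members, these counts are close to what the share over all genes gives. The median log2 fold change of the 8 was 1.67 in GFOGER and 2.24 in IKVAV, against 0.01 and -0.02 for all genes.

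FN1 was 6.72-fold higher in MDA-MB-231 than in T47D cells in GFOGER (log2 2.75, SE 0.0816, edgeR adjusted p = 3.32e-17) and 53.5-fold higher in IKVAV (log2 5.74, SE 0.0955, edgeR adjusted p = 1.69e-20). ITGA5 was 22.9-fold and 23.8-fold higher in the 2 peptides, and ITGB1 5.77-fold and 5.37-fold higher. ITGAV and ITGB5 differed less, by 1.70-fold and 1.55-fold in GFOGER and by 1.83-fold and 1.77-fold in IKVAV, and were higher in MDA-MB-231 cells in each (edgeR adjusted p between 5.03e-08 and 4.79e-07). ITGB3 had fitted log2 differences of 6.24 and 6.88, which rest on 0 to 8 reads in each T47D library. ITGB8 was 4.17-fold higher in IKVAV (log2 2.06, SE 0.227), and in GFOGER its log2 difference of 0.81 (SE 0.23, edgeR adjusted p = 0.00336) was under the limit of 2-fold. ITGB6 was the one member lower in MDA-MB-231 cells, in GFOGER (log2 -1.34, SE 0.389, edgeR adjusted p = 0.00378), on 8 to 38 reads per library, and in IKVAV its groups overlapped.

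Levels of different genes were compared per length, as cpm divided by the deposited gene length in kilobases, computed from the counts (RPKM below). In MDA-MB-231 cells with GFOGER, ITGB1 led with 426 ± 38.7 RPKM (SD, n = 3), followed by FN1 at 84.9 ± 0.972, ITGA5 at 73.5 ± 8.57, ITGB5 at 53.7, ITGAV at 42.0, ITGB3 at 3.45, ITGB8 at 0.757, ITGB6 at 0.267 and ITGA4 at 0.0130. In the same cells with IKVAV, FN1 led with 694 ± 12.0 RPKM (SD, n = 2), ahead of ITGB1 at 406 ± 6.84, and ITGB5 stood above ITGA5, at 60.2 and 55.5. In each of these orders no neighbours overlapped between libraries. In T47D cells the order was ITGB1, ITGB5, ITGAV, FN1 and ITGA5 in both peptides, at 73.8, 34.6, 24.6, 12.6 and 3.21 RPKM with GFOGER and at 75.6, 34.0, 25.3, 13.0 and 2.33 with IKVAV. The libraries of ITGB6 and ITGB8, at 0.683 and 0.432 with GFOGER and 0.508 and 0.595 with IKVAV, overlapped in T47D cells, so their order is not resolved.

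The make-up of the α subunit transcripts differed between the 2 lines. Of the summed per-length level of ITGA4, ITGA5 and ITGAV, ITGA5 made up 63.5% ± 5.17 (SD, n = 3) with GFOGER and 54.6% ± 0.356 (SD, n = 2) with IKVAV for MDA-MB-231 cells, but 11.6% ± 1.13 and 8.42% ± 1.17 (SD, n = 3 each) for T47D cells. ITGAV held almost all of the rest, and its ratio to ITGA5 was 0.581 and 0.832 in MDA-MB-231 cells and 7.70 and 11.0 in T47D cells. Among the 5 β subunits, ITGB1 made up 87.9% and 85.4% in MDA-MB-231 cells and 67.2% and 68.3% in T47D cells, and ITGB5 11.2% and 12.7% against 31.7% and 30.7%. ITGB3, ITGB6 and ITGB8 together were a small remainder, with ITGB3 the highest of them in MDA-MB-231 cells at 0.718% and 1.30%. Transcript shares do not measure the receptor pairs at the cell surface. The ratio of FN1 to ITGA5, ligand to receptor subunit, was 1.17 ± 0.133 with GFOGER and 12.5 ± 0.269 with IKVAV in MDA-MB-231 cells, and 3.94 ± 0.0575 and 5.63 ± 0.544 in T47D cells (SD).

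**Figure D3:**
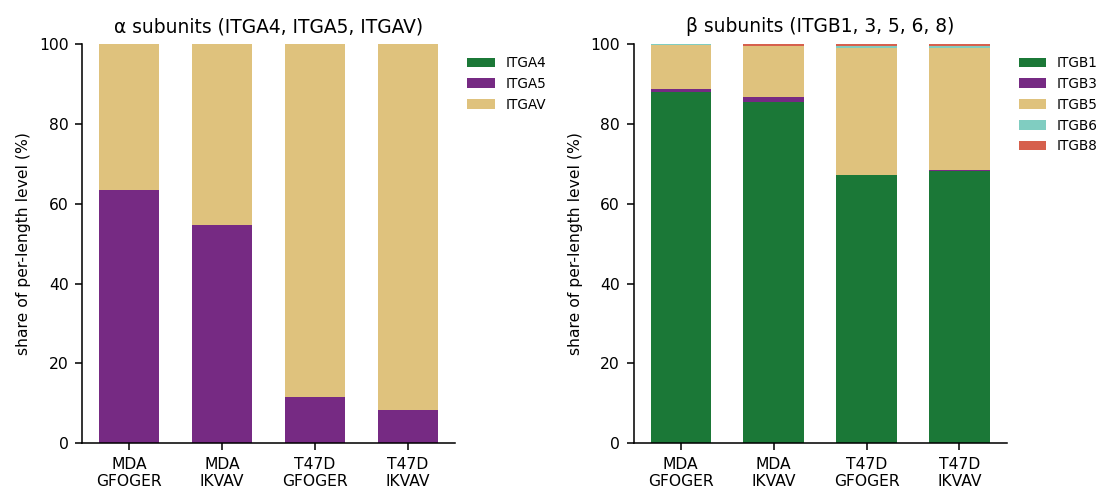
Mean share (%) of each subunit gene in the summed per-length level of the α subunits (left) and of the β subunits (right) in the 4 groups, MDA standing for MDA-MB-231. ITGA5 holds 63.5% and 54.6% of the α total in MDA-MB-231 cells and 11.6% and 8.42% in T47D cells, and with GFOGER ITGB5 holds 31.7% of the β total in T47D cells but 11.2% in MDA-MB-231 cells.

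Genes around fibronectin and its receptors were taken from 4 further lists, and their counts in MDA-MB-231 cells are to be read beside the 9.57% of all genes called there. Of 17 tested genes for other ligands of these integrins, 2 were called, both higher with GFOGER, and the median log2 fold change was -0.12. They were CYR61 and CTGF, which encode matricellular proteins of the CCN family. CYR61 had 1922 to 2128 cpm with GFOGER and 605 to 629 cpm with IKVAV (log2 fold change 1.69), and CTGF had 365 to 383 and 138 to 146 cpm (1.38). At any fold, 5 ligand genes were higher and 6 lower. THBS1, which encodes thrombospondin 1, was among the higher ones (0.79), and LTBP1 (-0.79), MFGE8 (-0.48) and TGFB1 (-0.40) were among the lower ones, which encode a latent TGF-β binding protein, a milk fat globule protein with an RGD motif and TGF-β1. These 4 genes were chosen after their values were seen.

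Of 21 tested integrin activators and adaptors, FERMT1, a kindlin that activates integrins, was called higher (log2 fold change 1.24) and TNS4, a tensin at focal adhesions, was called lower (-1.16), with a median of 0.18 over the list. Of 14 tested genes for fibronectin assembly, uptake and cell surface partners, 2 were called higher and 2 lower, with a median of 0.06. FBLN1, which encodes fibulin 1, was higher, with 5.38 to 6.72 cpm with GFOGER and 2.41 to 2.59 cpm with IKVAV (log2 fold change 1.25). MRC2, a receptor for collagen uptake with a fibronectin type II domain, had 49.9 to 64.3 cpm with GFOGER and 144 to 150.2 cpm with IKVAV (-1.41), and SDC2, which encodes the heparan sulfate proteoglycan syndecan 2, was lower too (-1.26).

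Of 10 tested genes for the remaining integrin subunits, 1 was called higher and 3 lower with GFOGER, with a median of -0.29. ITGA6, the α subunit of the laminin receptors α6β1 and α6β4, was higher (log2 fold change 1.19, 876 to 1002 cpm against 406 to 421 cpm). ITGA1 and ITGA10, α subunits of collagen receptors with β1, were lower. ITGA2, another such subunit, was higher with GFOGER but under the limit of 2-fold. It had 899 to 998 cpm with GFOGER and 714 to 727 cpm with IKVAV (log2 fold change 0.40, edgeR adjusted p = 0.00141). ITGA1 had 116 to 142 cpm with GFOGER and 561 to 581 cpm with IKVAV (-2.11), and ITGA10 had 11.4 to 11.6 and 63.2 to 63.7 cpm (-2.48). ITGB7, also lower, had 32 reads or fewer in every library. In T47D cells, 0 genes of these 4 lists were called at either limit by edgeR's quasi-likelihood test, of 13, 21, 12 and 13 tested.

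**Figure D4:**
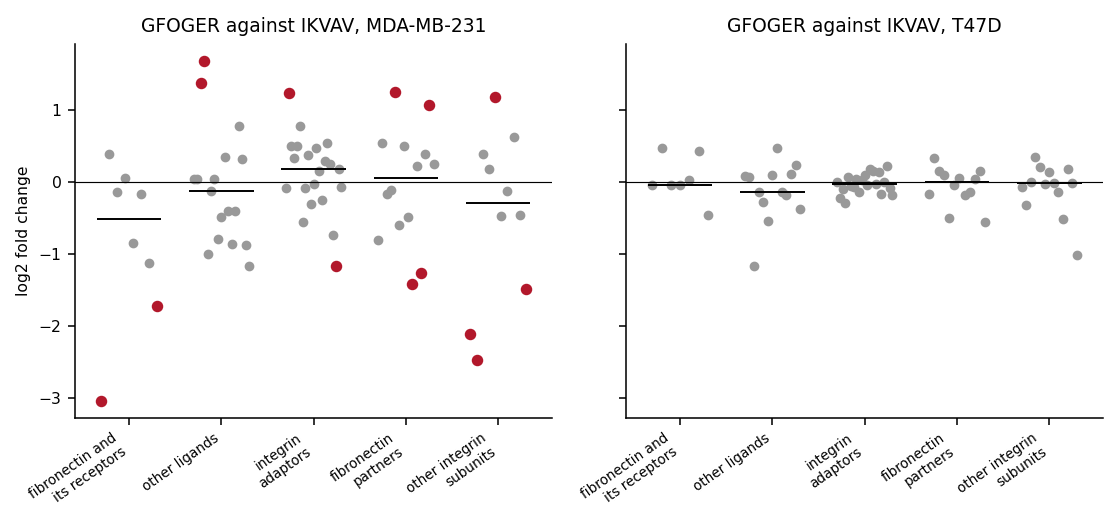
Log2 fold changes of GFOGER against IKVAV for each tested gene of the 9 members and of the 4 further lists, in MDA-MB-231 cells (left) and T47D cells (right), with called genes in red and a black line at the median of each list. In MDA-MB-231 cells FN1 lies lowest at -3.04, followed by ITGA10 at -2.48 and ITGA1 at -2.11, CYR61 is highest at 1.69, and in T47D cells 0 points are red.

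Markers of other cell types were checked beside the difference of FN1, which fibroblasts also make. The 6 fibroblast markers summed to 18.5 to 23.1 cpm with GFOGER and 34.2 to 38.4 cpm with IKVAV in MDA-MB-231 cells and to 52.9 to 62.9 cpm in T47D cells. The T47D sum came nearly all from COL1A1 (means of 59.6 cpm with GFOGER and 57.8 cpm with IKVAV). Between the lines, COL1A1 was called lower in MDA-MB-231 cells in both peptides, and PDGFRB, LUM and COL1A2 were called higher. Of the 6 markers, 2, COL3A1 and DCN, had 0 reads in both IKVAV libraries of MDA-MB-231 cells. PDGFRB, LUM and COL1A2 were called lower with GFOGER there (log2 fold changes -1.29, -1.14 and -1.12), and their part in the difference of FN1 was not tested. Summed levels of the 3 endothelial markers were at most 14.8 cpm in MDA-MB-231 libraries and 0.183 cpm in T47D libraries. The 3 leukocyte markers summed to 246 to 463 cpm in MDA-MB-231 cells, nearly all from CD68, and to at most 3.33 cpm in T47D cells.

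The genes whose log2 cpm was most like that of FN1 over the 11 libraries were LOC283070 (Pearson r = 0.9959), ABCA6 (0.9952), RARRES3 (0.9948), C4orf3 (0.9945) and CFI (0.9943), out of 15309 genes compared. Each had its highest mean in MDA-MB-231 cells with IKVAV, and all but C4orf3 were more than 2-fold lower with GFOGER there (log2 fold changes of -3.15 to -1.57, and -0.35 for C4orf3). In T47D cells ABCA6 had means of 0.0199 cpm with GFOGER and 0 with IKVAV, and CFI had 0 with both. These lie below the floor of detection, so the T47D end of their r is not a measured level. Among the members, FN1 was most like ITGB5 (0.935), ITGB8 most like FN1 (0.901), ITGA5 and ITGB1 most like each other (0.989), and ITGB6 was unlike every other member (highest r of -0.0549, with ITGB8). These values describe the 4 groups, which the libraries of a cell line share, and carry no test.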

How the data were processed

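Reads were aligned by the authors to hg19 (TopHat2) and assigned to genes (HTSeq) after a quality check in FastQC. The submitters' processing notes name Trim Galore 0.4.4, TopHat2 2.1.0, bedtools 2.17, SAMtools 1.4, HTSeq 0.6.1p1 and edgeR 3.16.5. The libraries were stranded poly-A libraries, while the annotation and the strand setting of HTSeq are not given in the sources used here. The deposited table gives raw read counts per gene and library, and the authors' RPKM values beside them. Only the counts were tested, and the RPKM values served to derive the library total each implies. The table held 24656 rows, of which 1288 repeated a symbol and were left out. Of 12 labelled samples, 11 had columns.

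Counts were analysed in R 4.3.3 with edgeR 4.0.16 (TMM, filterByExpr, robust quasi-likelihood test, Benjamini-Hochberg adjustment over all genes tested). The peptides were compared in each cell line on its own, and the cell lines and the interaction in a fit of all 4 groups. Genes were called where the adjusted p was under 0.05 and the log2 fold change exceeded 1 in either direction. The tests were checked on simulated counts. Apart from the changed genes, these had the same mean for a gene in all libraries of a fit. They held no difference between the cell lines and no replicates that stand apart. Recovery here means an adjusted p under 0.05 in the simulated direction, at any fold. At a simulated log2 change of 1.5, 93.8% of changed genes were recovered among 14090 for MDA-MB-231 cells, 93.9% among 13639 for T47D cells and 82.8% among 15310 for the interaction, and of the genes with an adjusted p under 0.05, 5.03%, 7.73% and 2.84% had not been changed. Log2 cpm for likeness used a prior count of 2. Alternatives were DESeq2 1.42.0, limma 3.58.1 voom, other scalings and filters, a 2-fold limit inside the test, the replicate number as a block, the sets of RPKM totals as a term and leaving out each library.

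The members, gene lists and tests were chosen with earlier results of these data known. The text names all members, the called genes of each further list that averaged at least 2 on the log2 cpm scale (at most 4 a list, by fold), the 5 genes most like FN1 and the cell type markers. Exceptions are stated, and 1 gene of the partner list that the rule would name is not reported here. Protein sequences were not used here.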

Additional observations from a re-analysis of the deposited data

Results flagged for a closer look

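FN1 and ITGB8 were called in the test of whether the difference between the peptides differed between the 2 cell lines. The test gave a log2 interaction of -2.99 for FN1, which was lower with GFOGER in MDA-MB-231 cells (3 of 3 GFOGER libraries below both IKVAV libraries) and overlapped between the peptides in T47D cells. For ITGB8 the interaction was -1.25, with the same separation in MDA-MB-231 cells and 2 of 3 T47D libraries with IKVAV above the T47D libraries with GFOGER. The call for ITGB8 was lost with the 2-fold limit inside the test. It was also lost without IKVAV replicate 3 of T47D cells, where the interaction was -0.98. ITGB8 was then lower with GFOGER in T47D cells too (log2 fold change -0.73), so for this gene a difference between the lines rests partly on that library.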

How the results depend on the processing

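The log2 fold change of FN1 in MDA-MB-231 cells stayed between -3.07 and -3.02 and that of ITGB8 between -1.85 and -1.58 over 15 alternatives each. Both were called in every alternative that kept both IKVAV libraries. Leaving out either IKVAV library left a single one. The RPKM sets as a term did the same, since only IKVAV replicate 1 had a low implied total there. That fit was not a separate check. Of the members' fold changes under all alternatives, 680 kept their direction and their call by adjusted p and 2-fold together, 4 lost and 11 gained that call, and 10 turned direction. The adjusted p alone crossed 0.05 in 13 of 643 that kept that call and had a test against no change. In MDA-MB-231 cells these were ITGB1 and ITGB5 without GFOGER replicate 3 (edgeR adjusted p 0.00055 and 2.65e-05) and with the block (0.000179 and 4.43e-06). The block set the same library aside there, so these fits are not separate checks. ITGB1 and ITGB5 also passed with voom (0.0239 and 0.00156), where ITGB6 passed too (0.0388). ITGA5 crossed without IKVAV replicate 2, which left a single IKVAV library (log2 fold change 0.36). With the adjusted p alone, 4 members were called between the peptides in MDA-MB-231 cells in place of 2, and 8 between the cell lines in GFOGER in place of 5. At least 10 counts in every library left 3 of those 5, because ITGB3 and ITGB6 did not pass that filter and were not tested. For the interaction, voom called 4 members, a 2-fold limit inside the test 1, and leaving out 1 library 1 to 3. ITGB6 between the cell lines in GFOGER was lost with the 2-fold limit inside the test (edgeR adjusted p = 0.167). It was also lost with the RPKM sets as a term (0.0871), which took ITGB8 there to 0.34 (0.322). The GFOGER libraries of MDA-MB-231 cells all had high implied totals and those of T47D cells all low ones. In the fit of all 4 groups that term was therefore estimated from the IKVAV libraries alone. In GFOGER it cannot separate the sets from the cell lines. ITGB6 between the peptides in MDA-MB-231 cells was called with upper-quartile factors, library size alone or all 4 groups in one fit (0.0464 to 0.0486). The values that turned direction in T47D cells were ITGB5 with voom (-0.01) and ITGB8 with the RPKM sets (0.30), and, leaving out 1 library, FN1 (-0.11 to 0.01), ITGB1 (-0.11 to 0.03), ITGB5 (-0.02 to 0.05) and ITGAV (-0.09 to 0.02). For the interaction, they were ITGA5 (0.16) and ITGAV (0.05) with the RPKM sets and ITGA5 leaving out 1 library (-0.19 to 0.05). The cause was not tested.

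In T47D cells ITGA5 and ITGB8 passed with voom (0.0109 and 0.0252) and without IKVAV replicate 3 (0.0109 and 0.0193). Over all genes, the T47D count of 4 became 15 with the adjusted p alone, 8 with DESeq2, 146 with voom, 2 with library size alone and 18 with no filter. It was 0 with the 2-fold limit inside the test, 9 with the block and 0 to 92 leaving out 1 library, the 92 without IKVAV replicate 3. No count is given with the RPKM sets, where the peptide difference in T47D cells rests on IKVAV replicate 3 alone. The adjusted p alone and the 2-fold limit inside the test gave 6023 and 403 genes in MDA-MB-231 cells in place of 1348, 3209 and 131 for the interaction in place of 979, 12186 and 4212 between the cell lines in GFOGER in place of 7177, and 11831 and 4162 in IKVAV in place of 7032. Replicate numbers did not pair the libraries (correlations of deviations from -0.058 to 0.0181), and with the replicate block the log2 fold change of FN1 was -3.03 in MDA-MB-231 cells, with 2 members called there, 0 in T47D cells and 3 for the interaction, the third being ITGB6 (-1.66). Depth limits ITGA4, ITGB6 and, in T47D cells, ITGB3.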
